A study of Solanum lycopersicum with 3 samples.

Results

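The miR166 and miR390 families were followed through small RNA libraries of tomato ovaries, as every mature miRNA listed under either family name. There were 7 such entries among the 634 mature miRNAs counted, of which 125 are known and 509 predicted. The 3 miR166 entries are sly-miR166a and both arms of the sly-miR166c precursor. The 4 miR390 entries are both arms of sly-miR390a and of sly-miR390b. An arm is the side of the hairpin precursor, 5p or 3p, from which the mature RNA is cut.

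All ovaries came from unpollinated wild-type flowers of the cultivar UC82. The AGL6sil and IAA9sil ovaries were given 5 µg of dsRNA each, against the MADS-box gene AGL6 or the auxin response repressor IAA9, carried on layered double hydroxide particles (LDHs). The ctrl ovaries were mock-treated with LDHs alone. Injection was into the flower pedicel, flower buds were emasculated after 6 h, and ovaries were collected after 5 days. The silencing is transient and partial, and each condition is 1 library from 1 pool of ovaries, so every ratio compares libraries and has no replicate check. Only miRNAs were counted, so neither the target transcripts nor tissue markers could be checked.

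In plants, miR166 guides cleavage of the transcripts of class III homeodomain leucine-zipper (HD-ZIP III) factors, which set the adaxial (upper) side of leaves and carpels and pattern ovules and vasculature. miR390 acts in ARGONAUTE7, where it directs cutting of TAS3 RNA into the tasiARFs, small RNAs that hold down ARF3 and ARF4 on the abaxial (lower) side. In tomato, loss of tasiARFs gives the narrow leaves of the wiry mutants. The guide strand, the strand usually active on targets, comes from the 3p arm in miR166 and from the 5p arm in miR390, and the opposite arm is called the passenger strand.

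The sequences of 3 of the 7 entries were at hand from the supplement of the study and are shown because these are the entries that passed the limits in AGL6sil below. Capitals mark the seed, bases 2 to 8.
sly-miR166c-5p: gGGAUGUUgucuggcucgaca
sly-miR390a-5p: aAGCUCAGgagggauagcacc
sly-miR390a-3p: cGCUAUCCauccugaguuuua
Each is 21 nt long. The miR390a guide begins with A, the usual first base of plant miR390, whereas sly-miR166c-5p begins with G and sly-miR390a-3p with C. No seed recurred among the other 45 known and the 47 predicted sequences of the supplement, which cover only part of the list. They include none of the other 4 entries, so a seed shared with those, such as sly-miR390b-5p, could not be seen. Set against each other, the 2 miR390a strands faced over 19 bases, with 16 Watson-Crick pairs, 1 G-U pair and 2 mismatches. They left 2 unpaired bases at each 3′ end, the form of a duplex cut from a hairpin. The sequences of the other 4 entries were not used here. How reads fitting more than 1 entry were divided between sly-miR166a and sly-miR166c-3p, or between miR390a and miR390b, is not given in the sources used here, so values of single entries within those pairs are uncertain and sums are given beside them.

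Counted reads totalled 1460919 for AGL6sil, 1053000 for IAA9sil and 1038064 for ctrl. All 7 entries together made up 12.7% of the AGL6sil reads, 16.2% of the IAA9sil reads and 24.9% of the ctrl reads. The most abundant miRNA, sly-miR162, took 44.2%, 41.8% and 34.8% in the same libraries, and its part in the lower share of the 7 entries in the silenced libraries was not tested.

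The miR166 family made up most of this share. Its sums were 178302 reads for AGL6sil, 159495 for IAA9sil and 251333 for ctrl, or 12.2%, 15.1% and 24.2% of all counted reads. The miR390 family summed to 7565, 10801 and 6850 reads, or 0.518%, 1.03% and 0.660%. The share of miR390 was thus highest in IAA9sil, and that of miR166 in ctrl.

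The AGL6sil library held 103483 reads of the guide strand sly-miR166a, the IAA9sil library 66525 and the ctrl library 99113. It ranked 3rd, 3rd and 2nd among the 125 known miRNAs of those libraries. sly-miR166c-3p, the guide of the second precursor, was counted 67818, 53101 and 71529 times and ranked 4th in each library. Both guides stayed among the 4 most abundant known miRNAs whatever the treatment. sly-miR166c-5p, the passenger strand, behaved otherwise. Its reads numbered 7001 for AGL6sil, 39869 for IAA9sil and 80691 for ctrl, and its rank was 19th in AGL6sil, 7th in IAA9sil and 3rd in ctrl. In ctrl the passenger strand thus had more reads than were listed for the guide of its own precursor. Both miR166 guide entries together held 170642 reads in ctrl, and how shared reads were divided between them is not known.

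The miR390 entries lay far below, and the precursors differed. For sly-miR390b-3p the AGL6sil, IAA9sil and ctrl libraries held 6293, 8279 and 5067 reads. sly-miR390b-5p, the guide, had 927, 2229 and 1128 reads. Both miR390b arms were highest in IAA9sil. For sly-miR390a-3p they held 303, 206 and 466 reads, and the guide sly-miR390a-5p had 42, 87 and 189. Both miR390a arms were highest in ctrl. In each of the 3 libraries and for both precursors, the passenger strand of miR390 had more reads than the guide.

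**Figure D1:**
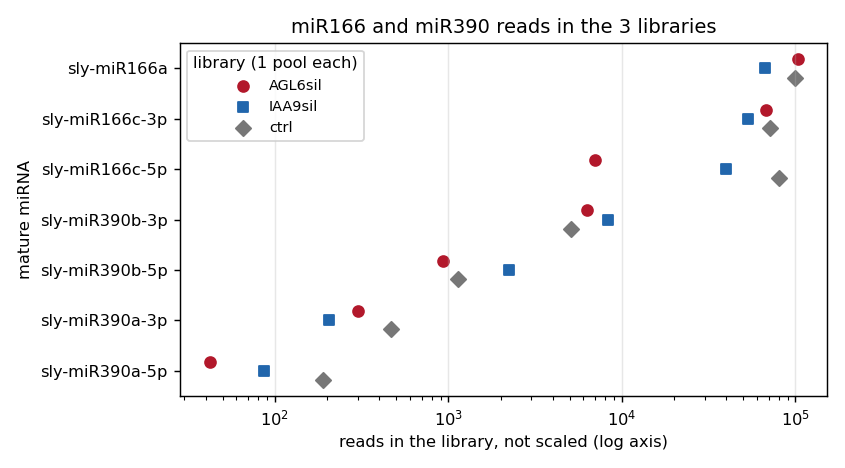
Reads of each miR166 and miR390 entry (rows) in the AGL6sil, IAA9sil and ctrl libraries, not scaled for library size, on a log axis. Each point is 1 library. sly-miR166c-5p spans the widest range, with 7001 reads in AGL6sil and 80691 in ctrl, while sly-miR166a and sly-miR166c-3p stay between 53101 and 103483.

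To compare libraries, counts were divided by the library median over the 634 miRNAs, and log2 ratios were taken. The study also normalized on median values, but over which miRNAs is not given in the sources used here. Set to 1 in ctrl, the divisors were 2.13 for AGL6sil and 1.16 for IAA9sil. The limits of the study were applied, at least 50 reads over the 3 libraries and a log2 ratio of at least 1.5 in size, which is a 2.83-fold difference. All 7 entries passed the read limit. Each interval is the 95% Clopper-Pearson interval computed from both counts of a ratio. It treats each read as a separate molecule and covers counting error at most. PCR reads that carry no molecular identifier may be copies of the same molecule, so the intervals may be too narrow.

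In AGL6sil, 3 of the 7 entries (42.9%) were lower than ctrl past both limits and 0 were higher. The share lower past the limits was 13.6% of the 374 miRNAs past the read limit, and 42.9% of the 91 known ones among them, so the 7 entries stood at the background of known miRNAs. The shares higher past the limits were 7.75% and 4.4%. Their median log2 ratio was −1.37, against −1.20 for the known miRNAs and −0.12 for all 374. The passenger sly-miR166c-5p was the lowest of the 7 at −4.62 (interval −4.65 to −4.58), a 24.5-fold difference. The guide sly-miR390a-5p followed at −3.26 (−3.78 to −2.77), which is 9.58-fold. Summed over miR390a and miR390b, the guides were only 2.89-fold lower, at −1.53 (−1.65 to −1.41), with 969 reads in AGL6sil against 1317 in ctrl. sly-miR390a-3p was at −1.71 (−1.92 to −1.50), and the summed miR390 3p arms, with 6596 reads against 5533, at −0.84 (−0.89 to −0.78), short of the limit. The 3 entries were below ctrl under each of 8 scalings, sly-miR166c-5p and sly-miR390a-5p past the limit in all 8 and sly-miR390a-3p in 3 of them. The summed miR390 guides passed it in 1 of the 8, with a range of −1.53 to −0.05, and the summed 3p arms ranged between −0.84 and 0.65, so that their direction depended on the scale. At a 1.5-fold threshold on the library median, all 7 entries were lower in AGL6sil, against 30.2% of all miRNAs and 64.8% of the known ones.

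The other 4 entries did not pass the ratio limit in AGL6sil, and their direction relative to ctrl depended on the scale. On the library median, sly-miR390b-5p was at −1.37, sly-miR166c-3p at −1.17, sly-miR166a at −1.03 and sly-miR390b-3p at −0.78. The same 4 reached 0.11, 0.32, 0.45 and 0.70 when the median of known miRNAs was the scale. The sum of both miR166 guides was 171301 in AGL6sil and 170642 in ctrl. It does not depend on how shared reads were divided if each read was counted once, which is not given in the sources used here. Its log2 ratio ran between −1.08 and 0.40 over the scalings. The guides of miR166, the strands that act on HD-ZIP III transcripts, thus differed from ctrl by less than the choice of scale.

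**Figure D2:**
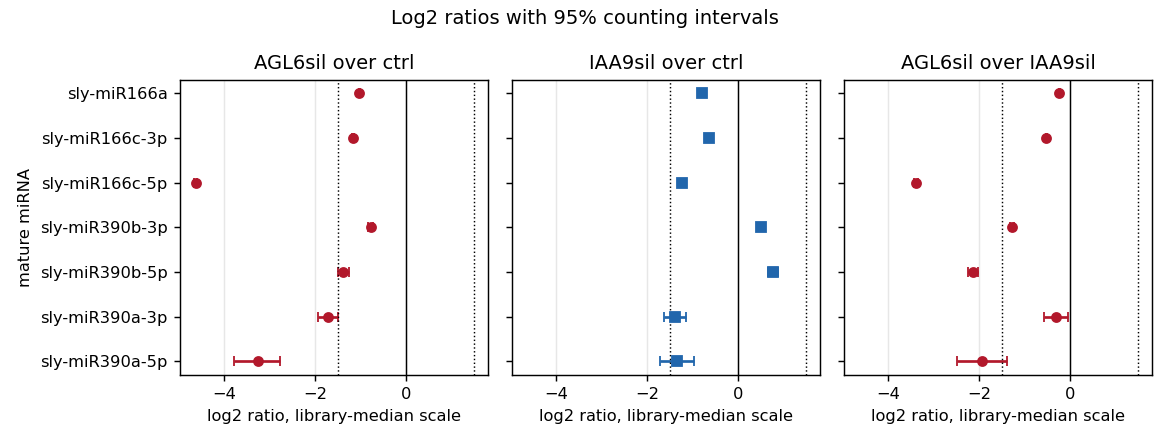
Log2 ratios of the 7 entries (rows) on the library-median scale, for AGL6sil over ctrl, IAA9sil over ctrl and AGL6sil over IAA9sil. Bars are 95% counting intervals and dotted lines mark the limit of 1.5 in size. sly-miR166c-5p lies at −4.62, −1.23 and −3.38 in the panels from left to right.

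**Figure D3:**
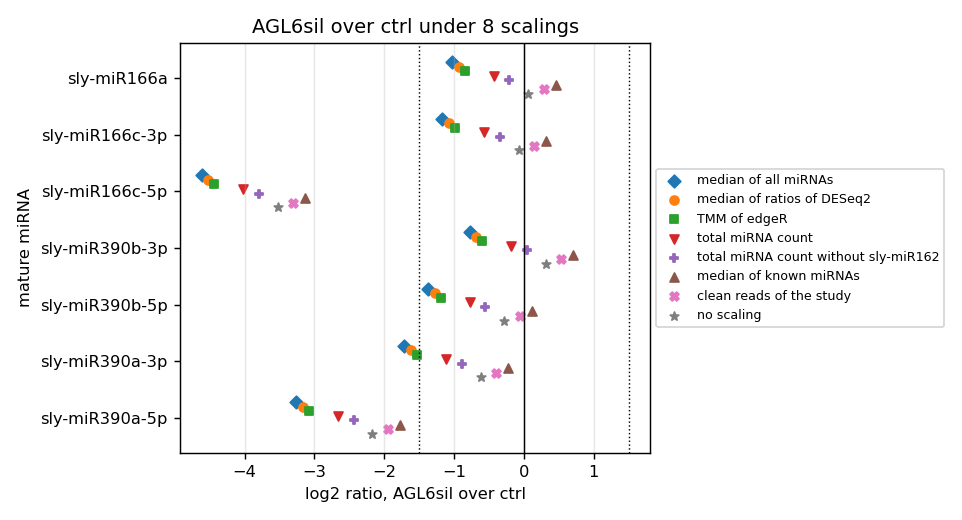
Log2 ratios of AGL6sil over ctrl for the 7 entries under 8 scalings, shown by marker. Dotted lines mark 1.5 in size. sly-miR166c-5p stays between −4.62 and −3.13 and sly-miR390a-5p between −3.26 and −1.78, whereas both miR166 guides and both miR390b arms lie on either side of 0.

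In IAA9sil, 0 of the 7 entries passed the ratio limit, where 4.55% of all miRNAs and 6.59% of the known ones were lower past it, and 2.41% and 0% were higher. Of the 7, 5 were below ctrl, and the median log2 ratio was −0.79, against −0.02 for the known miRNAs and −0.05 for all 374. At a 1.5-fold threshold on the library median 5 entries were lower, against 20.1% of all and 24.2% of known miRNAs, and 1 was higher, against 17.1% and 12.1%. These counts depended on the scale. Over the 8 scalings sly-miR166c-3p came as near to ctrl as −0.29 and sly-miR166a as −0.43, both short of 1.5-fold. sly-miR390b-3p rose to as much as 0.85, past it. No direction in IAA9sil turned under any of the 8 scalings. The passenger sly-miR166c-5p was at −1.23 (interval −1.25 to −1.22). The guides sly-miR166a and sly-miR166c-3p were at −0.79 (−0.81 to −0.78) and −0.65 (−0.66 to −0.63), and their sum was at −0.73.

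By the listed counts, the miR390 precursors went opposite ways in IAA9sil. Both miR390a arms were below ctrl, the guide sly-miR390a-5p at −1.34 (interval −1.72 to −0.96) and sly-miR390a-3p at −1.39 (−1.64 to −1.15). Both miR390b arms were above ctrl, the guide sly-miR390b-5p at 0.77 (0.66 to 0.87) and sly-miR390b-3p at 0.49 (0.44 to 0.54). Because miR390b is the more abundant precursor, the sum of both miR390 guides was 2316 reads in IAA9sil against 1317 in ctrl, a log2 ratio of 0.60 (0.50 to 0.70).

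In the direct comparison of both silencings, 3 of the 7 entries (42.9%) were lower in AGL6sil than in IAA9sil past both limits and 0 were higher. The share lower was 12.8% of all miRNAs and 35.2% of the known ones, so the 7 entries stood near the background of known miRNAs. The share higher was 8.56% and 4.4%. The 3 were sly-miR166c-5p at −3.38 (interval −3.42 to −3.35), sly-miR390b-5p at −2.14 (−2.25 to −2.03) and sly-miR390a-5p at −1.93 (−2.49 to −1.38). All 3 are 5p strands, 1 a passenger and the others the miR390 guides, and they are every 5p strand among the 7. Arm differences of at least 1.5 in size, in either direction, were common here too, in 13 of 16 precursors (81.2%) with at least 50 reads on each arm. As log2 of 5p over 3p, sly-miR166c differed by −2.86 and sly-miR390a by −1.61, while sly-miR390b, at −0.87, fell short of that size. The summed miR390 guides had 969 reads in AGL6sil and 2316 in IAA9sil, a log2 ratio of −2.13 (−2.24 to −2.02). sly-miR166c-5p passed the limit under each of the 8 scalings, sly-miR390b-5p under 5 and sly-miR390a-5p under 4. The other 4 entries lay between −1.27 and −0.24 on the library median and between 0.01 and 1.04 on the median of known miRNAs, so that their direction depended on the scale.

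Ratios within a library need no scaling. The 2 miR390 guides were therefore set against each other. For each sly-miR390a-5p read AGL6sil had 22.1 sly-miR390b-5p reads, IAA9sil 25.6 and ctrl 5.97. The log2 difference of AGL6sil from ctrl was 1.89 (interval 1.38 to 2.42) and that of IAA9sil 2.10 (1.71 to 2.50), both measured against the same ctrl library. The passenger strands shifted the same way, with 20.8, 40.2 and 10.9 sly-miR390b-3p reads for each sly-miR390a-3p read. By the listed counts, miR390b thus took a larger part of the family in both silenced libraries than in ctrl. That depends on how shared reads were divided between miR390a and miR390b, which is not known, and no sum avoids it. The listed counts of the miR166 guides kept nearly the same proportion. For each sly-miR166a read there were 0.655, 0.798 and 0.722 sly-miR166c-3p reads in AGL6sil, IAA9sil and ctrl. That proportion likewise depends on how reads shared by these entries were divided.

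The balance of the 2 arms was compared in the same way. For sly-miR166c, the 5p arm held 9.36% of the reads of both arms in AGL6sil (Clopper-Pearson interval 9.15% to 9.57%), 42.9% in IAA9sil (42.6% to 43.2%) and 53.0% in ctrl (52.8% to 53.3%). These shares take only the 3p reads listed as sly-miR166c-3p. With those of sly-miR166a added, the 3p reads numbered 171301, 119626 and 170642, which would make each 5p share smaller. For sly-miR390a the 5p arm held 12.2% (8.92% to 16.1%), 29.7% (24.5% to 35.3%) and 28.9% (25.4% to 32.5%). For sly-miR390b it held 12.8% (12.1% to 13.6%), 21.2% (20.4% to 22.0%) and 18.2% (17.3% to 19.2%). In all 3 precursors the 5p share was lowest in AGL6sil, although the 5p arm is the passenger in miR166 and the guide in miR390. The same held in every other precursor with at least 50 reads on each arm, except sly-miR164a, sly-miR168a, sly-miR394 and sly-miR396a. In those the 5p share was highest in AGL6sil.

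**Figure D4:**
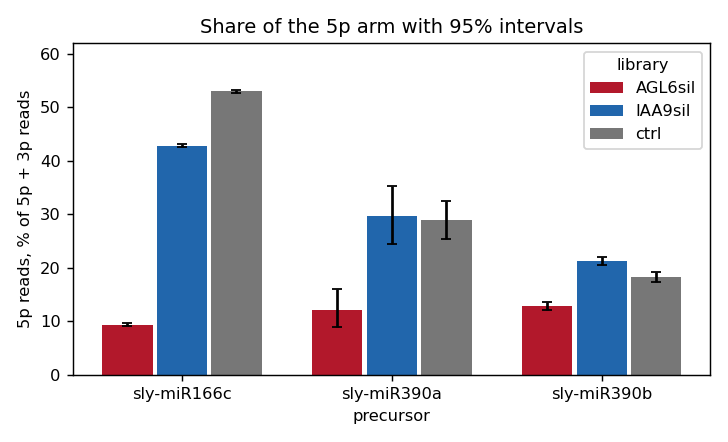
Reads of the 5p arm as a percentage of the 5p and 3p reads of sly-miR166c, sly-miR390a and sly-miR390b in the AGL6sil, IAA9sil and ctrl libraries. Bars start at 0 and error bars are 95% Clopper-Pearson intervals. The 5p share of sly-miR166c is 9.36% in AGL6sil and 53.0% in ctrl, taking only the 3p reads listed as sly-miR166c-3p.

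Expressed as the log2 difference of 5p over 3p, AGL6sil lay below ctrl by −3.45 for sly-miR166c (exact interval −3.49 to −3.41), by −1.55 for sly-miR390a (−2.11 to −1.01) and by −0.60 for sly-miR390b (−0.73 to −0.46). In IAA9sil the differences from ctrl were −0.59 (−0.61 to −0.56), 0.06 (−0.40 to 0.51) and 0.27 (0.16 to 0.39). The interval of sly-miR390a in IAA9sil includes 0. With the arms of miR390a and miR390b summed, the difference of AGL6sil from ctrl was −0.70, under the size of 1.5 that sly-miR390a alone reached.

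Such arm differences were common in AGL6sil. Of 28 precursors with both arms listed, 16 had at least 50 reads on each arm. In AGL6sil against ctrl, 13 of these 16 (81.2%) differed by at least 1.5 in size, and 2 of 16 (12.5%) did in IAA9sil against ctrl. Among the 13 precursors other than miR166c, miR390a and miR390b, the median size in AGL6sil was 2.14. sly-miR166c ranked 3rd in size of the 16, sly-miR390a 13th and sly-miR390b 15th. The arm difference of sly-miR166c was thus among the larger ones, and those of miR390 among the smaller ones, of a difference seen in most precursors. The 3 other precursors with the largest arm differences were sly-miR394, sly-miR482e and sly-miR9471b. sly-miR394 stood at 7.50 (4.99 to 12.8), with 1 sly-miR394-3p read in AGL6sil and 308 in ctrl. sly-miR482e stood at −3.84 (−3.91 to −3.76), with 1860 sly-miR482e-5p reads against 14078. sly-miR9471b stood at −3.19 (−4.95 to −1.76), with 5 sly-miR9471b-5p reads against 22. In sly-miR394 and sly-miR482e, as in sly-miR166c, the arm that was scarcer in AGL6sil is the passenger strand, since miR394 guides from the 5p arm and miR482 from the 3p arm. In sly-miR390a and sly-miR390b the arm whose share was lower in AGL6sil is the guide, and the arms of sly-miR9471b were not classed.

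**Figure D5:**
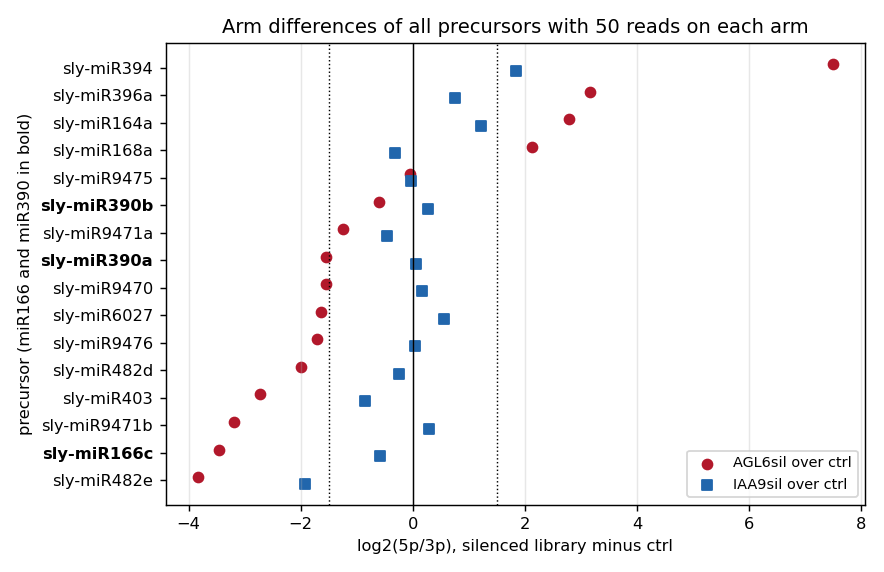
Log2 of 5p over 3p reads, silenced library minus ctrl, for the 16 precursors with at least 50 reads on each arm (rows, ordered by AGL6sil). AGL6sil and IAA9sil share the same ctrl library and dotted lines mark 1.5 in size. In AGL6sil 13 of the 16 lie past these lines, sly-miR166c at −3.45, and in IAA9sil 2 do.

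The known miRNAs most like sly-miR166c-5p were found by the distance of the pair of log2 ratios to ctrl, among 90 others past the read limit and over 3 libraries. The nearest was sly-miR396a-3p, with 5560, 34765 and 64633 reads in AGL6sil, IAA9sil and ctrl, at a distance of 0.12 log2 units. sly-miR403-5p (240, 1404 and 2404 reads, distance 0.31) and sly-miR482e-5p (1860, 4848 and 14078 reads, distance 0.80) followed. All 3 are passenger strands like sly-miR166c-5p, as miR396 guides from the 5p arm and miR403 and miR482 from the 3p arm. The share of passenger strands among the 90 candidates was not determined, so this likeness cannot be called particular to sly-miR166c-5p. Those nearest to sly-miR390a-5p were farther off. They were sly-miR167a (313, 336 and 989 reads, distance 0.67), a regulator of ARF6 and ARF8, then sly-miR482e-5p (distance 0.86) and sly-miR168a-3p (885, 5600 and 6173 reads, distance 1.17).

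Other families that pattern plant organs were set beside them, namely miR160 (targets ARF10, ARF16 and ARF17), miR164 (the NAM and CUC boundary genes), miR319 (TCP factors such as LANCEOLATE), miR394 (the F-box gene LCR) and miR396 (GRF growth factors). Of 13 listed entries, 12 passed the read limit. In AGL6sil 6 of the 12 were lower than ctrl past both limits and 0 were higher, with a median log2 ratio of −1.66, against 13.6% lower of all miRNAs and 42.9% of the known ones. In IAA9sil 1 of the 12, sly-miR394-3p, was lower, against 4.55% of all and 6.59% of known miRNAs, and the median was −0.07. Of the 6, those with the most reads were sly-miR396a-3p at −4.63 in AGL6sil, sly-miR164a-3p at −5.53 (195 reads against 4225 in ctrl), sly-miR164b-3p at −2.03 (425 against 815) and sly-miR394-5p at −1.86 (309 against 527). The first 3 are passenger strands and sly-miR394-5p is a guide. The others of the 6 were the passenger sly-miR394-3p at −9.36 (1 read against 308) and the guide sly-miR164a-5p at −2.73 (41 against 128). The share of passenger strands over all known miRNAs was not determined.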

How the data were processed

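Small RNA libraries of AGL6sil, IAA9sil and ctrl ovaries were analysed, 1 library per condition. The authors removed low-quality and adapter reads, mapped reads of 18 to 30 nt to the tomato genome with Bowtie (version and genome build not given in the sources used here), matched them to miRBase or to miREvo and mirdeep2 predictions, and deposited raw read counts per mature miRNA. Groups were taken from the sample titles and columns from the sample descriptions.

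Counts were divided by library medians and compared as log2 ratios without a pseudocount. No test between conditions was possible. Arm differences have exact conditional odds-ratio intervals. Named entries were all miR166 and miR390 entries and the 3 nearest known miRNAs to sly-miR166c-5p and to sly-miR390a-5p. Also named were the 3 other precursors with the largest arm differences in AGL6sil, and the entries of the organ patterning list past the limits. The members and lists were chosen with earlier results of these data known.

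Alternatives were the median of ratios (DESeq2 1.42.0), TMM (edgeR 4.0.16, both in R 4.3.3), the sum of miRNA reads with and without sly-miR162, the median of known miRNAs, the clean reads of the study, no scaling, a pseudocount of 1, other read filters and thresholds, and summed entries. The alternatives for ratios between precursors and for the miR390 sums were chosen after seeing the data. Ratios were computed in Python 3.11.15 with scipy 1.17.1, pandas 2.3.3 and numpy 2.4.6. The code for calls and intervals was run on simulated Poisson counts, with as many miRNAs raised as lowered and no variation between libraries. That setting is simpler than these data, so it checks the computation only. In the tomato assembly SLM_r2.1, whose table was used for names only, 5 miRNA genes carry these family names. MIR166b was not analysed here.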

Additional observations from a re-analysis of the deposited data

How the results depend on the processing

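No paired analysis was possible because each condition is 1 library, and no library could be left out. In AGL6sil against ctrl, the number of entries lower past the limits was 3 on the library median and with DESeq2 or TMM factors. It was 2 with every other scaling, and 7 with a 1.5-fold threshold on the library median. In IAA9sil against ctrl the 1.5-fold threshold on the library median gave 5 lower and 1 higher, and these counts depended on the scale. In AGL6sil against IAA9sil, 1 entry was lower past the limits with the median of known miRNAs, with the clean reads or without scaling. No entry was higher past a log2 ratio of 1.5 in any comparison under any scaling. With the sum of both miR166 guides in place of sly-miR166c-3p, the arm difference of sly-miR166c was −3.53 in AGL6sil and −0.50 in IAA9sil against ctrl, and −3.03 in AGL6sil against IAA9sil. With the arms of miR390a and miR390b summed, the arm difference that stood at −1.55 for sly-miR390a was −0.70 in AGL6sil against ctrl, and −0.89 in AGL6sil against IAA9sil. A pseudocount of 1 changed no count and left each arm difference within its interval. Depth limits sly-miR390a-5p most, with 42 reads in AGL6sil.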
